A study of Mus musculus with 24 samples.

Results

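The replication-dependent histone genes encode the core histones H2A, H2B, H3 and H4 and the linker histone H1 that package newly copied DNA. They are taken here as the 56 of 55291 gene rows whose symbol is *H2ac*, *H2bc*, *H3c* or *H4c* followed by a number, or *H1f1* to *H1f5*: 5 H1, 15 H2A, 14 H2B, 12 H3 and 10 H4 genes. Their RNA was measured in proliferating C2C12 cells, an immortalized mouse myoblast line, for which the sample labels give primary myoblasts. Each of 4 lines stably expressed an shRNA from a lentiviral vector: a scrambled sequence in the control (scr), or a sequence against *Pbrm1* (*Baf180* KD), *Arid1a* (*Baf250a* KD) or *Brd9* (*Brd9* KD), which encode subunits of the PBAF, BAF and ncBAF forms of the SWI/SNF chromatin remodeler. The lines were transduced populations that kept part of the targeted RNA. The paper lists 2 shRNAs for each target and does not say which the sequenced cells carried. Each line was grown for 48 h with no added metal (NT), with 100 µM CuSO4 (Cu) or with 50 µM ZnSO4 (Zn), in 2 independent biological replicates per condition, which gave 24 libraries in 12 conditions.

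Most animal mRNAs are spliced and polyadenylated, whereas replication-dependent histone mRNAs have no introns and usually end in a short stem-loop instead of a poly(A) tail. The stem-loop binding protein, Slbp, holds the stem-loop through processing, export and translation, and the U7 snRNP directs cleavage just downstream of it. These genes lie in dense clusters, are transcribed mainly in S phase with the help of the coactivator Npat, and their mRNAs are degraded when DNA synthesis stops, so their summed level follows DNA replication in dividing cells. Ribosomal RNA was removed with RNase H and poly(A) RNA was not selected, so these tailless mRNAs were retained. In bulk RNA, fewer cells in S phase and less histone RNA per S-phase cell cannot be told apart.

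All 56 genes were found in the GENCODE M21 annotation of GRCm38 (mm10), and 54 of them have 1 exon in their longest transcript. They form 3 groups: 10 genes on chromosome 3 (from 96219865 to 96270132), 16 on chromosome 13 (from 21715763 to 22043676) and 30 further along chromosome 13 (from 23531050 to 23934851). The stem-loop was searched for in the annotated transcripts as the canonical 16-base hairpin, and 37 of the 56 genes held it, against 66 of 55450 genes in the whole annotation (0.119%). A missing match says only that these letters are not in the annotated transcripts. The stem-loops of genes described below are given 5′ to 3′ as DNA letters from these transcripts, with the hairpin in capitals, because the letters of the hairpin differ between histone types.
H2ac7: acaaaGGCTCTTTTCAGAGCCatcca
H1f4: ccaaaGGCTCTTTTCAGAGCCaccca
H1f2: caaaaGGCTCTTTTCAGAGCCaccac
H3c1: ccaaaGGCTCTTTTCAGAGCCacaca
H3c6: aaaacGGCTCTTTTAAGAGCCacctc
H4c8: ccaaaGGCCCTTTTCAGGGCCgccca
H4c14: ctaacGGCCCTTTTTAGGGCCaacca
H4c2: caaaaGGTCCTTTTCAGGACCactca

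The hairpin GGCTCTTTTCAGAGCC was in 21 genes, 3 of H1, 7 of H2A, 6 of H2B and 5 of H3, and in no H4 gene. The 9 H4 genes with a match carried other hairpins: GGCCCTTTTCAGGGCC in 4 (*H4c3*, *H4c4*, *H4c6* and *H4c8*), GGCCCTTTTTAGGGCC in 2 (*H4c9* and *H4c14*), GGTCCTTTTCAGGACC in 2 (*H4c2* and *H4c11*) and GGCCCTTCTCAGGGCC in *H4c1*. None of these 4 hairpins was in a gene of another type.

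The promoters also differ by type, and 1 promoter per type is given here, from 150 bases before to 10 bases after the transcription start. They are RefSeq windows of GRCm38.p6, which 50 of the 56 genes had. Capitals mark matches on either strand of the TATA box (TATAAA), the CCAAT box (CCAAT), the octamer bound by Oct-1 (ATTTGCAT), the H1 box (AAACACA), the core of the H4 site bound by Hinfp (GGTCCG) and an E2F site (TTTNNCGC).
H1f4, chr13:23622549-23622708, minus strand: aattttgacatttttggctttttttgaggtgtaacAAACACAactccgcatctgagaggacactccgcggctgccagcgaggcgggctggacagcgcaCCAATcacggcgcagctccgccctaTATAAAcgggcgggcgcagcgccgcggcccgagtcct
H2ac13, chr13:21716262-21716421, plus strand: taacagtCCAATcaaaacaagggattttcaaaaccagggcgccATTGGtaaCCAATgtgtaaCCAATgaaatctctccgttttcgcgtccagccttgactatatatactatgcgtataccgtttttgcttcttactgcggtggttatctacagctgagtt
H2bc18, chr3:96269550-96269709, plus strand: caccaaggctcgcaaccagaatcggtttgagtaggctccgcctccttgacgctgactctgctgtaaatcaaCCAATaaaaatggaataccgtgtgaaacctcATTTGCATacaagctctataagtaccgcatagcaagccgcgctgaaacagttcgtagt
H3c6, chr13:23562376-23562535, minus strand: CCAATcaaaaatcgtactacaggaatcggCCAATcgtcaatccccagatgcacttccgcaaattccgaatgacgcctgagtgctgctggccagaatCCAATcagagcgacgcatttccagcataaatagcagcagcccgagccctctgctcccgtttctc
H4c8, chr13:23530894-23531053, plus strand: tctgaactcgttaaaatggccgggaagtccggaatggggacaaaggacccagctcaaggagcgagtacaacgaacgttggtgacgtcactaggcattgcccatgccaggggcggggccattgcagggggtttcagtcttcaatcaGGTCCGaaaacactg

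Over the whole window (250 bases before to 50 after the start), CCAAT was in 88% of the histone promoters, against 37.4% of all 32851 promoters, and TATAAA was in 60% against 13.6%. CCAAT was in all H1, H2A, H2B and H3 promoters and in 3 of 9 H4 promoters. The octamer was in 50% of H2B and 42.9% of H2A promoters and in no promoter of the other types (1.74% of all promoters). The H1 box was in 4 of 5 H1 promoters (7.18% of all promoters), and the H4 core in 8 of 9 H4 promoters (8.25% of all promoters). The E2F site was in 26% of histone promoters, against 5.17% of all. These matches describe the letters and not binding.

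Library totals lay between 495778 and 75179394 counts, with a median of 22158430, and 0.215% to 0.59% of them lay on the histone genes. Replicate 2 of *Baf250a* KD with Zn was the shallowest library, with 1987 counts on histone genes. The 2 scr NT libraries stood apart in ribosomal RNA: rows that collect rRNA reads summed to 49960 and 18090 CPM there, against 859 to 11560 in the other libraries. Libraries also differed in how expression changed with GC content, by -0.34 to 0.32 log2 units per 10 percentage points relative to the average library, and histone genes are GC-rich, with a median of 58.6% against 49.2% for the genes tested. The targeted RNAs were lower in their lines (*Pbrm1* 65.8 and 75.6 CPM against 143 and 99.8 in scr, NT; *Arid1a* 100.1 and 98.7 against 283 and 292; *Brd9* 17.87 and 17 against 27.2 and 32.4). The genes listed as myoblast markers were *Myod1*, *Myf5*, *Des*, *Vim*, *Itga7*, *Cdh15* and *Pax7*. Their levels summed to between 5885 and 10450 CPM. The 8 markers of leukocytes, endothelium, epithelium and adipocytes summed to between 16.76 and 30.04 CPM.

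Levels are TMM-scaled CPM (read pairs of the gene relative to the library total), and per kilobase of exon where genes are compared with each other. Counts were found for 54 of the 56 genes. *H2ac18* and *H3c14* had no count in any library. All 50-base windows of both also occur in other annotated transcripts, so the lack of counts does not show that these genes were silent. In 28 of the 56 genes at least 50% of the 50-base windows of the transcript also occur in another annotated transcript. Only unique alignments were kept, so reads that lie within shared sequence can be lost. The levels of these 28 genes are uncertain and may be too low. *H2ac1*, with 22 counts in all libraries together, and *H2ac14*, with 72, were also near 0, and these 4 genes failed the filter on low counts. The other 52 entered every test.

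H1 had the highest measured level of the types before correction for length: the 5 H1 genes held 34.5% of the summed histone level, and H1 and H4 together 59.2%. H1 proteins bind the DNA between nucleosomes. Per kilobase, the median measured level was 183 CPM in H1, 151 in H4, 88.2 in H2B, 72.5 in H3 and 30.6 in H2A. Genes with levels uncertain through shared sequence were 0 of 5 in H1 and 2 of 10 in H4. They were 6 of 14 in H2B, 8 of 12 in H3 and 12 of 15 in H2A. The H2A and H3 medians also include *H2ac18* and *H3c14*, which had no count. The share of uncertain genes rose as the median fell, so this order cannot separate lost reads from lower expression. The highest single genes per kilobase were *H2bc18* (802 CPM per kb, mean of 24 libraries), *H1f5* (378), *H4c8* (336), *H1f1* (328) and *H4c12* (308). *H2bc18* and *H3c13* (185 CPM per kb) lie side by side on chromosome 3 within the gene model Gm20628, which shares all of their windows, and their levels carry that uncertainty. *H2ac7*, named as the marker of the module, was one of its least abundant members by measured level, at 4.14 CPM (7.24 per kb). It lies next to *H2bc7* in the larger chromosome 13 cluster.

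The summed level of the 56 genes was lowest in untreated *Baf250a* KD cells and in that line with Cu. In scr cells it was 4375 and 5684 CPM at NT, 4480 and 4076 with Cu, and 4437 and 3951 with Zn. In *Baf180* KD cells it was 3674 and 3607 at NT, 5962 and 5225 with Cu, and 5263 and 4939 with Zn. Both metals therefore gave values above both NT libraries in that line, and above every metal-treated scr library. In *Baf250a* KD cells it was 2251 and 2355 at NT, 2198 and 2786 with Cu, and 3284 and 3862 with Zn, where all 6 libraries lay below every scr library. In *Brd9* KD cells it was 4726 and 4405 at NT, 5218 and 6039 with Cu, and 4976 and 4512 with Zn. The pooled SD of replicates was 0.142 on the log2 scale of this sum.

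**Figure D1:**
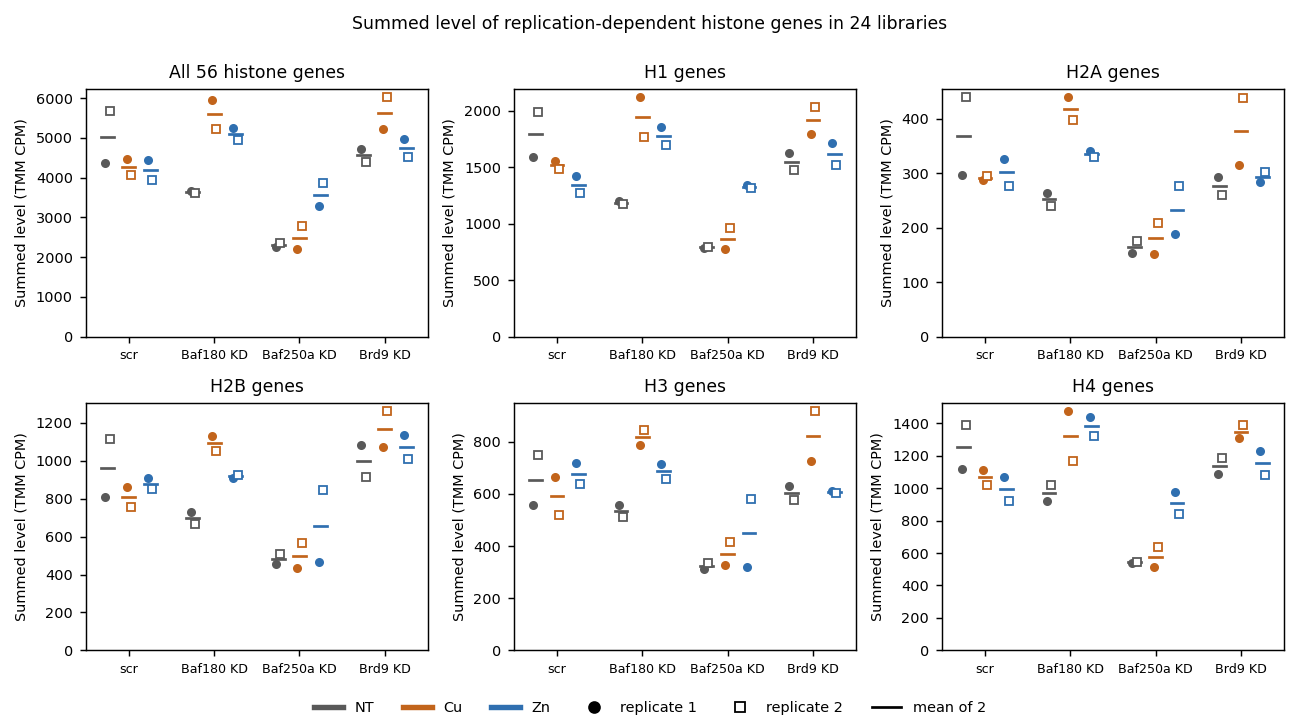
Summed level of the histone genes in TMM CPM (vertical axes, from 0) for all 56 genes and for each histone type, in the 4 cell lines (horizontal axes) by treatment (grey NT, orange Cu, blue Zn); points are single libraries and lines the mean of 2. In every panel the *Baf250a* KD NT libraries lie below both scr NT libraries, and the *Baf180* KD Cu libraries lie above both *Baf180* KD NT libraries.

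Among H1 genes, which encode the linker histones, the levels per library were as follows in the genes described further. *H1f4* was at 387.7 and 492.5 (NT), 359.8 and 354.6 (Cu) and 315.1 and 285.9 (Zn) CPM in scr and at 295.7 and 289.3 (NT), 483.5 and 396 (Cu) and 466.8 and 396.2 (Zn) in *Baf180* KD cells. *H1f4*'s level was 162.6 and 165.3 (NT), 164 and 223.8 (Cu) and 297.8 and 303.2 (Zn) in *Baf250a* KD and 368.9 and 341.2 (NT), 402.7 and 459.5 (Cu) and 381.1 and 343.9 (Zn) in *Brd9* KD cells. All *Baf250a* KD libraries at NT or with Cu lay below every library of the other lines. *H1f1* was at 262.8 and 316.7 (NT), 275.2 and 224.6 (Cu) and 248.6 and 232.3 (Zn) CPM in scr and at 193.5 and 190 (NT), 282.1 and 267.9 (Cu) and 354.4 and 281.4 (Zn) in *Baf180* KD cells. *H1f1*'s level was 93.64 and 100.8 (NT), 103.1 and 111.5 (Cu) and 229.8 and 171 (Zn) in *Baf250a* KD and 307.8 and 307 (NT), 345.5 and 359.3 (Cu) and 308.8 and 264.6 (Zn) in *Brd9* KD cells. The same held here, and both Zn libraries of *Baf250a* KD lay above the NT and Cu libraries of that line. *H1f2* was at 315.6 and 431.1 (NT), 283.6 and 332.5 (Cu) and 259.3 and 223.4 (Zn) CPM in scr and at 197.1 and 200.6 (NT), 484.8 and 332.1 (Cu) and 294.5 and 302.9 (Zn) in *Baf180* KD cells. *H1f2*'s level was 205.8 and 213.3 (NT), 188.2 and 235.2 (Cu) and 292.1 and 322.6 (Zn) in *Baf250a* KD and 278.7 and 228.9 (NT), 281.6 and 363.8 (Cu) and 296.9 and 274.3 (Zn) in *Brd9* KD cells. Here the *Baf180* KD NT libraries lay as low as those of *Baf250a* KD, and Cu replicate 1 of *Baf180* KD was among the highest of all libraries. *H1f5* was at 290 and 349.9 (NT), 291.6 and 253.4 (Cu) and 293.4 and 261.9 (Zn) CPM in scr and at 242.5 and 227.3 (NT), 401.3 and 360.9 (Cu) and 327.8 and 327.3 (Zn) in *Baf180* KD cells. *H1f5*'s level was 140.5 and 136.4 (NT), 139.3 and 166.3 (Cu) and 207.6 and 248.8 (Zn) in *Baf250a* KD and 331.2 and 290.5 (NT), 362.5 and 408.7 (Cu) and 364.7 and 313.8 (Zn) in *Brd9* KD cells. The *Baf250a* KD libraries at NT or with Cu were again below those of every other line.

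For H4 and H2B, the highest genes of each type and *H2bc7*, the neighbour of *H2ac7*, had these levels. *H4c14* was at 194.8 and 214.3 (NT), 209 and 177.9 (Cu) and 170.3 and 155 (Zn) CPM in scr and at 175.7 and 186.5 (NT), 218.3 and 201.4 (Cu) and 269 and 217.2 (Zn) in *Baf180* KD cells. *H4c14*'s level was 80.84 and 78.1 (NT), 84.68 and 98.12 (Cu) and 168.6 and 114.7 (Zn) in *Baf250a* KD and 194.4 and 238.9 (NT), 266.3 and 256 (Cu) and 216.5 and 177.8 (Zn) in *Brd9* KD cells. The *Baf250a* KD libraries at NT or with Cu lay below those of the other lines, and the metal-treated libraries of *Baf180* KD above its NT libraries. *H2bc18* was at 290.1 and 383.1 (NT), 320.5 and 267.9 (Cu) and 307.3 and 292 (Zn) CPM in scr and at 277.9 and 266 (NT), 369.9 and 351.9 (Cu) and 340.3 and 342.8 (Zn) in *Baf180* KD cells. *H2bc18*'s level was 148.6 and 148.5 (NT), 137.9 and 169.1 (Cu) and 215 and 272.1 (Zn) in *Baf250a* KD and 389.8 and 383.3 (NT), 422.1 and 446.1 (Cu) and 425.5 and 369.8 (Zn) in *Brd9* KD cells. *Baf250a* KD was lowest at NT and with Cu, and the *Brd9* KD libraries were among the highest. *H2bc7* was at 30.95 and 35.88 (NT), 34.84 and 26.56 (Cu) and 42.13 and 35.75 (Zn) CPM in scr and at 40.49 and 31.67 (NT), 45.86 and 58.98 (Cu) and 41.06 and 39.79 (Zn) in *Baf180* KD cells. *H2bc7*'s level was 26.46 and 25.45 (NT), 25.26 and 32.36 (Cu) and 19.07 and 50.53 (Zn) in *Baf250a* KD and 47.12 and 39.46 (NT), 53.52 and 57.34 (Cu) and 51.87 and 47.12 (Zn) in *Brd9* KD cells. The lines overlapped for this gene, and the lowest and one of the highest values were the Zn replicates of *Baf250a* KD.

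The H2A genes had lower measured levels. *H2ac15* was at 89.61 and 114.1 (NT), 102.9 and 77.02 (Cu) and 104.8 and 86.79 (Zn) CPM in scr and at 103.7 and 85.56 (NT), 127.1 and 138.8 (Cu) and 118.1 and 109.8 (Zn) in *Baf180* KD cells. *H2ac15*'s level was 52.56 and 55.23 (NT), 52.91 and 68.54 (Cu) and 57.77 and 77.74 (Zn) in *Baf250a* KD and 102.9 and 100.9 (NT), 126.3 and 150.9 (Cu) and 110.9 and 100.4 (Zn) in *Brd9* KD cells. Both *Baf180* KD Cu libraries lay above both NT libraries, and *Baf250a* KD was lowest at NT. *H2ac13* was at 23.44 and 43.49 (NT), 15.29 and 23.47 (Cu) and 19.77 and 16.77 (Zn) CPM in scr and at 10.66 and 12.96 (NT), 24.64 and 17.23 (Cu) and 17.77 and 18.3 (Zn) in *Baf180* KD cells. *H2ac13*'s level was 6.111 and 8.28 (NT), 5.41 and 10.4 (Cu) and 12.81 and 9.717 (Zn) in *Baf250a* KD and 12.07 and 8.634 (NT), 10.26 and 21.57 (Cu) and 7.526 and 13.16 (Zn) in *Brd9* KD cells. The highest value was that of scr NT replicate 2, well above its replicate. *H2ac7* was at 3.694 and 10.07 (NT), 3.792 and 5.957 (Cu) and 5.59 and 5.656 (Zn) CPM in scr and at 2.732 and 1.687 (NT), 9.019 and 5.6 (Cu) and 1.596 and 3.779 (Zn) in *Baf180* KD cells. *H2ac7*'s level was 2.243 and 3.293 (NT), 1.926 and 3.932 (Cu) and 2.436 and 1.943 (Zn) in *Baf250a* KD and 3.795 and 2.9 (NT), 2.973 and 7.119 (Cu) and 3.741 and 3.97 (Zn) in *Brd9* KD cells. No library was above 10.1 CPM, and the replicates of scr NT stood far apart.

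For H3, the levels of 3 genes were as follows. *H3c6* was at 108 and 145.6 (NT), 130.1 and 104 (Cu) and 139.6 and 118 (Zn) CPM in scr and at 107.3 and 99.59 (NT), 169.3 and 175.7 (Cu) and 141.5 and 140.8 (Zn) in *Baf180* KD cells. *H3c6*'s level was 64.94 and 70.19 (NT), 66.61 and 87.77 (Cu) and 57.91 and 124.4 (Zn) in *Baf250a* KD and 117.8 and 103.8 (NT), 142.6 and 182 (Cu) and 110.6 and 115.9 (Zn) in *Brd9* KD cells. The *Baf250a* KD Zn replicates stood far apart, on both sides of the NT values. *H3c13* was at 75.15 and 89.2 (NT), 120 and 63.97 (Cu) and 104 and 93.32 (Zn) CPM in scr and at 99.93 and 88.07 (NT), 81.82 and 119.8 (Cu) and 134.8 and 88.19 (Zn) in *Baf180* KD cells. *H3c13*'s level was 42.43 and 39.42 (NT), 53.14 and 64.79 (Cu) and 49.14 and 99.11 (Zn) in *Baf250a* KD and 105.4 and 102.6 (NT), 124 and 135.6 (Cu) and 107.1 and 87.48 (Zn) in *Brd9* KD cells. The replicates of several conditions stood apart, among them scr Cu and *Baf250a* KD Zn. *H3c1* was at 47.96 and 61.63 (NT), 59.01 and 42.19 (Cu) and 63.49 and 57.2 (Zn) CPM in scr and at 47.34 and 38.42 (NT), 63.21 and 70.91 (Cu) and 50.34 and 50.72 (Zn) in *Baf180* KD cells. *H3c1*'s level was 28.08 and 33.87 (NT), 27.97 and 34.12 (Cu) and 19.56 and 36.92 (Zn) in *Baf250a* KD and 65.83 and 54.9 (NT), 73.38 and 85.93 (Cu) and 62.69 and 58.07 (Zn) in *Brd9* KD cells. The *Baf250a* KD libraries all lay below those of the other lines.

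The comparison of untreated KD with scr cells asks how basal expression differs between each KD line and the control line. Loss of the subunit and other differences between the lines cannot be told apart in this design. The 3 comparisons share the same 2 scr NT libraries, so they are not independent of each other. Histone genes of every type were lower in *Baf250a* KD cells. The test called 47 of 52 genes lower and 0 higher (edgeR's quasi-likelihood test, Benjamini-Hochberg adjusted p under 0.05 over all genes), where 28.9% of all 14971 genes were called lower and 28.9% higher. The lower calls took in 5 of 5 H1, 11 of 12 H2A, 11 of 14 H2B, 10 of 11 H3 and 10 of 10 H4 genes. The median log2 fold change of the 52 was -1.11, against 0.00 over all genes, and the mean summed level was 0.458 times that of scr (2303 ± 73.5 against 5030 ± 926 CPM, SD, n = 2).

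All 5 linker histone genes fell. *H1f1* was at 93.6 and 101 CPM in *Baf250a* KD NT and at 263 and 317 in scr NT, so that the log2 fold change was -1.58 (SE 0.12, adjusted p = 1.59e-07 in edgeR). *H1f4*, the histone gene with the most CPM, was at 163 and 165 CPM against 388 and 493 (log2 fold change -1.42, SE 0.12, edgeR adjusted p = 5.71e-07). *H1f5* was at 140.5 and 136 CPM against 290.0 and 350 (-1.21, SE 0.11, 1.47e-06). *H1f2* was at 206 and 213 CPM against 316 and 431, a smaller difference (-0.83, SE 0.13, 0.000153). For all of them both KD libraries lay below both scr libraries.

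Among core histone genes, *H4c14*, an H4 gene of the chromosome 3 group, was at 80.8 and 78.1 CPM against 195 and 214 (log2 fold change -1.36, SE 0.11, edgeR adjusted p = 2.53e-07). *H2bc18* was at 148.6 and 148.5 CPM against 290.1 and 383 (-1.18, SE 0.13, 5.56e-06). *H3c13* was at 42.4 and 39.4 CPM against 75.2 and 89.2 (-1.01, SE 0.12, 1.13e-05). *H2ac15*, the most abundant H2A gene, was at 52.6 and 55.2 CPM against 89.6 and 114 (-0.92, SE 0.12, 4.07e-05), and *H3c6*, the most abundant H3 gene, at 64.9 and 70.2 against 108 and 146 (-0.91, SE 0.14, 9.25e-05). The largest fall was that of *H2ac13*, at 6.11 and 8.28 CPM against 23.4 and 43.5, with scr replicates far apart (-2.23, SE 0.25, 7.74e-06). *H2ac7* was at 2.24 and 3.29 CPM against 3.69 and 10.1, with scr replicates far apart (-1.36, SE 0.37, 0.00738). *H3c1* (-0.83, SE 0.14, 0.00027) and *H2bc7* (-0.37, SE 0.12, 0.0206) were also lower.

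The 5 genes tested and not called were *H2ac19*, *H2bc1*, *H2bc4*, *H2bc21* and *H3c15*, with log2 fold changes from -0.70 to -0.20. Leaving out any of the 4 libraries left between 44 and 48 genes called. In the same comparison the fall was not confined to histone mRNAs. Of 35 S-phase genes, such as the replicative helicase subunits and *Pcna*, 26 were lower and 3 higher (median -0.59), with *Gins3*, a subunit of the replicative helicase complex, the lowest of those called (-1.06, SE 0.13, 1.42e-05). Of 30 G2 and mitosis genes 17 were lower and 1 higher (median -0.43). Of 17 small RNAs without a poly(A) tail, such as Y RNAs, 13 were lower and 1 higher (median -1.32). All 5 rRNA-like rows were lower, with a median of -6.50. These rows were also lower against scr NT in *Brd9* KD (-7.18 to -4.78) and *Baf180* KD cells (-3.43 to -2.77). In scr cells they were lower with Cu (-8.05 to -4.31) and with Zn (-9.71 to -4.79) than at NT. Among 7 myoblast markers, 6 were lower and 1 higher (median -1.52). The part of these in the histone difference was not tested.

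In *Baf180* KD cells at NT, 33 of the 52 genes were lower and 0 higher than in scr, where 19.3% of all 14851 genes were called lower and 21.7% higher. The calls were 5 of 5 H1, 9 of 12 H2A, 10 of 14 H2B, 4 of 11 H3 and 5 of 10 H4 genes. The median log2 fold change was -0.50, against 0.03 over all genes. The summed level was 0.724 times that of scr.

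*H2ac7* had the largest fall, at 2.73 and 1.69 CPM against 3.69 and 10.1 (log2 fold change -1.66, SE 0.41, edgeR adjusted p = 0.00706), and *H2ac13* was at 10.66 and 12.96 CPM against 23.4 and 43.5 (-1.49, SE 0.24, 0.000549). Of the H1 genes, *H1f2* was at 197 and 201 CPM against 316 and 431 (-0.89, SE 0.14, 0.000414), *H1f4* at 296 and 289 against 388 and 493 (-0.57, SE 0.12, 0.00342), and *H1f1* at 194 and 190.0 against 263 and 317 (-0.58, SE 0.11, 0.002). The abundant genes *H4c14* (-0.16, SE 0.11, 0.259), *H2ac15* (-0.09, SE 0.13, 0.604), *H2bc18* (-0.29, SE 0.13, 0.0925) and *H3c6* (-0.28, SE 0.14, 0.117) did not pass the test. The count rested on few libraries: it was 12 without *Baf180* KD NT replicate 2, 20 without replicate 1, 19 without scr NT replicate 2 and 44 without scr NT replicate 1. Of the S-phase genes 6 were lower and 4 higher (median -0.15), and of the small RNAs 12 were lower and 1 higher (median -0.93). Of 7 myoblast markers 4 were lower and 1 higher (median -0.55), and of 8 differentiation markers 4 were higher and 0 lower (median 0.87). Their part in the histone values was not tested.

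In *Brd9* KD cells at NT, 5 genes were lower and 2 higher, where 14.1% of all 14277 genes were called lower and 15.1% higher. The lower genes were *H2ac12*, *H2ac13*, *H2ac21*, *H3c10* and *H1f2*. *H2ac13* was at 12.1 and 8.63 CPM against 23.4 and 43.5 (log2 fold change -1.67, SE 0.28, edgeR adjusted p = 0.00467), so it was called lower in all 3 KD lines. All 3 calls use the same 2 scr NT libraries, whose values stood far apart for this gene. *H2bc7*, at 47.1 and 39.5 CPM against 31.0 and 35.9 (0.39, SE 0.13, 0.0494), and *H3c13*, at 105 and 103 against 75.2 and 89.2 (0.36, SE 0.11, 0.0415), were higher. The median over the 52 was -0.16. Of the 7 differentiation markers tested here 6 were lower and 0 higher (median -1.31), of the G2 and mitosis genes 14 were higher and 0 lower (median 0.36), and of the small RNAs 10 were lower and 1 higher; their part was not tested. Without scr NT replicate 1, 29 genes were called, all lower, and without *Brd9* KD NT replicate 1 the count was 3 and without replicate 2 it was 2, also all lower.

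**Figure D2:**
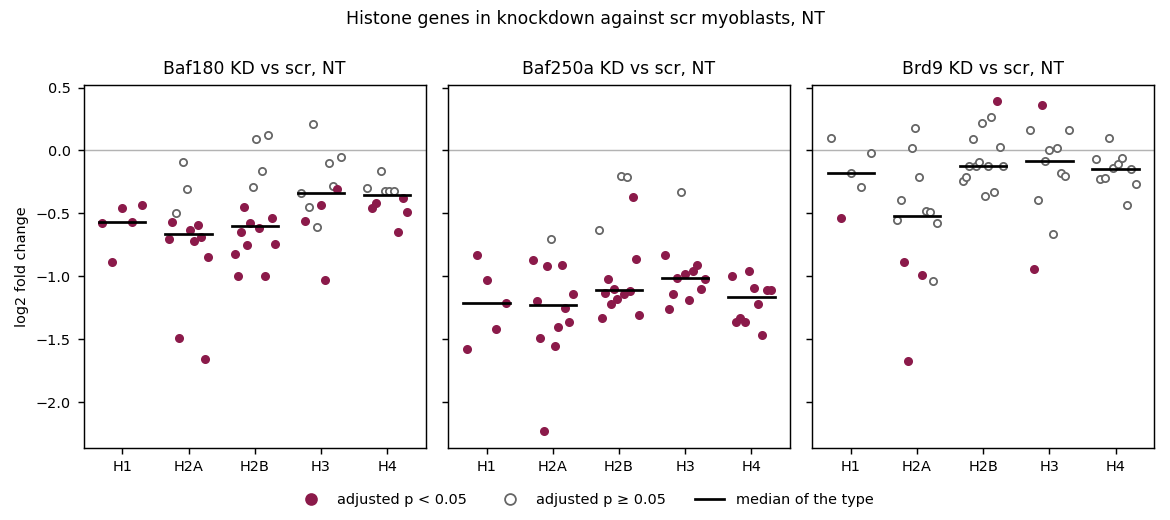
Log2 fold change of each tested histone gene (vertical axis) in untreated *Baf180* KD, *Baf250a* KD and *Brd9* KD cells against untreated scr cells, by histone type (horizontal axis); filled points passed an adjusted p of 0.05, open points did not, and black lines are medians. Filled points below 0 number 33, 47 and 5 from left to right, and 2 filled points lie above 0, both in *Brd9* KD cells.

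GC content moved with these comparisons. Over all genes tested, the log2 fold change against scr changed by -0.38 per 10 percentage points of GC in *Baf250a* KD, by -0.31 in *Baf180* KD and by -0.37 in *Brd9* KD cells. Among the histone genes themselves the change was -0.09, -0.05 and -0.13. With an offset for GC content and length, 0 genes were called higher and 45 lower in *Baf250a* KD, and 3 higher and 21 lower in *Baf180* KD. In *Brd9* KD cells the offset gave 10 higher and 4 lower, so the balance of the calls there turned with this setting.

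The comparison of metal-treated with untreated cells of the same line asks what added Cu or Zn does to these genes. In scr cells few genes passed the test. With Cu, edgeR called 0 of 52 genes, DESeq2 also called 0, and 10 had an unadjusted p under 0.05 (10.4% of all genes); 0.00667% of all 15002 genes were called higher and 0.0267% lower. With Zn, 1 histone gene was called, *H1f4*, which fell from 388 and 493 CPM to 315 and 286 (log2 fold change -0.46, SE 0.11, edgeR adjusted p = 0.0363), where 7.13% of all genes were called lower and 10.5% higher. That call was lost without either Zn library or without scr NT replicate 2, and 7 genes were called without scr NT replicate 1. The medians over the 52 genes were -0.22 with Cu and -0.15 with Zn, while those over all genes were 0.01 and -0.01. With Zn the fold change over all genes changed by -0.56 per 10 percentage points of GC, and among the histone genes by 0.

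Cu raised histone genes of all types in *Baf180* KD cells. Of 52 genes, 40 were higher and 0 lower than at NT, where 5.46% of all 15241 genes were called higher and 8.30% lower. These were 5 of 5 H1, 10 of 12 H2A, 12 of 14 H2B, 9 of 11 H3 and 4 of 10 H4 genes, and the median log2 fold change was 0.63, against -0.01 over all genes. The summed level was 1.54 times that at NT (5594 ± 521 against 3640 ± 47.4 CPM, SD, n = 2). For 49 of the 52 genes tested both Cu libraries lay above both NT libraries, as they did for 32.5% of all genes tested.

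*H2ac7* rose the most, from 2.73 and 1.69 CPM at NT to 9.019 and 5.6 with Cu (log2 fold change 1.69, SE 0.37, edgeR adjusted p = 0.0203), at a low level where both Cu libraries lay in the range of the scr NT libraries. *H1f2* rose from 197 and 201 CPM to 485 and 332 (1.00, SE 0.14, 0.00637), and *H1f5* from 243 and 227 to 401 and 361 (0.66, SE 0.08, 0.00431). *H3c6* rose from 107 and 99.6 CPM to 169 and 176 (0.70, SE 0.08, 0.00285), and *H2ac13* from 10.66 and 12.96 to 24.6 and 17.2 (0.78, SE 0.18, 0.0218). *H3c1* (0.61, SE 0.11, 0.0112), *H1f4* (0.55, SE 0.11, 0.0146), *H2bc7* (0.51, SE 0.14, 0.0371), *H1f1* (0.49, SE 0.10, 0.0171), *H2ac15* (0.46, SE 0.10, 0.0164) and *H2bc18* (0.37, SE 0.08, 0.0158) rose by less. The H4 genes had the lowest median of the 5 types, 0.43, and *H4c14*, at 176 and 187 CPM at NT and 218 and 201 with Cu, did not pass the test (0.18, SE 0.10, 0.276).

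Other gene lists moved in this comparison too. Of the 5 rRNA-like rows 4 were lower and 0 higher (median -5.15), and of 8 differentiation markers 3 were lower, *Myog*, *Myh3* and *Tnnt3*, and 0 higher (median -0.44). Of the S-phase genes 12 were higher and 3 lower (median 0.23), with *Tk1*, thymidine kinase, the highest of those called (0.42, SE 0.09, 0.0162). Of the G2 and mitosis genes 9 were lower and 1 higher (median -0.08). Of 13 histone genes listed as replication-independent, 1 was higher, *H2ax* (0.60, SE 0.09, 0.00776), and 1 lower. Of the small RNAs 1 was higher and 2 lower. The part of these lists in the histone values was not tested. The count of 40 fell to 8 without *Baf180* KD NT replicate 2 and to 21 without Cu replicate 1. It was 30 with the offset for GC content and length. Over all genes the fold change rose by 0.28 per 10 percentage points of GC, and among the histone genes by 0.03.

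With Zn in *Baf180* KD cells, edgeR called 0 of 52 genes, although 42 had an unadjusted p under 0.05 (13.1% of all genes), and DESeq2 called 19. Calls were rare over the genome, with 0.0131% of all genes called higher and 0.00656% lower. The median log2 fold changes were 0.57 for H1, 0.50 for H4, 0.48 for H2A, 0.41 for H2B and 0.34 for H3. *H1f1* was at 354 and 281 CPM against 194 and 190.0 at NT (0.71, SE 0.10, edgeR adjusted p = 0.0922), and *H4c14* at 269 and 217 against 176 and 187 (0.40, SE 0.10, 0.316). Both Zn libraries lay above both NT libraries for 45 of the 52 genes, against 23.8% of all genes. The summed level was 1.40 times that at NT, and the call therefore depends on the test: 32 genes were called with every gene kept that had a count.

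**Figure D3:**
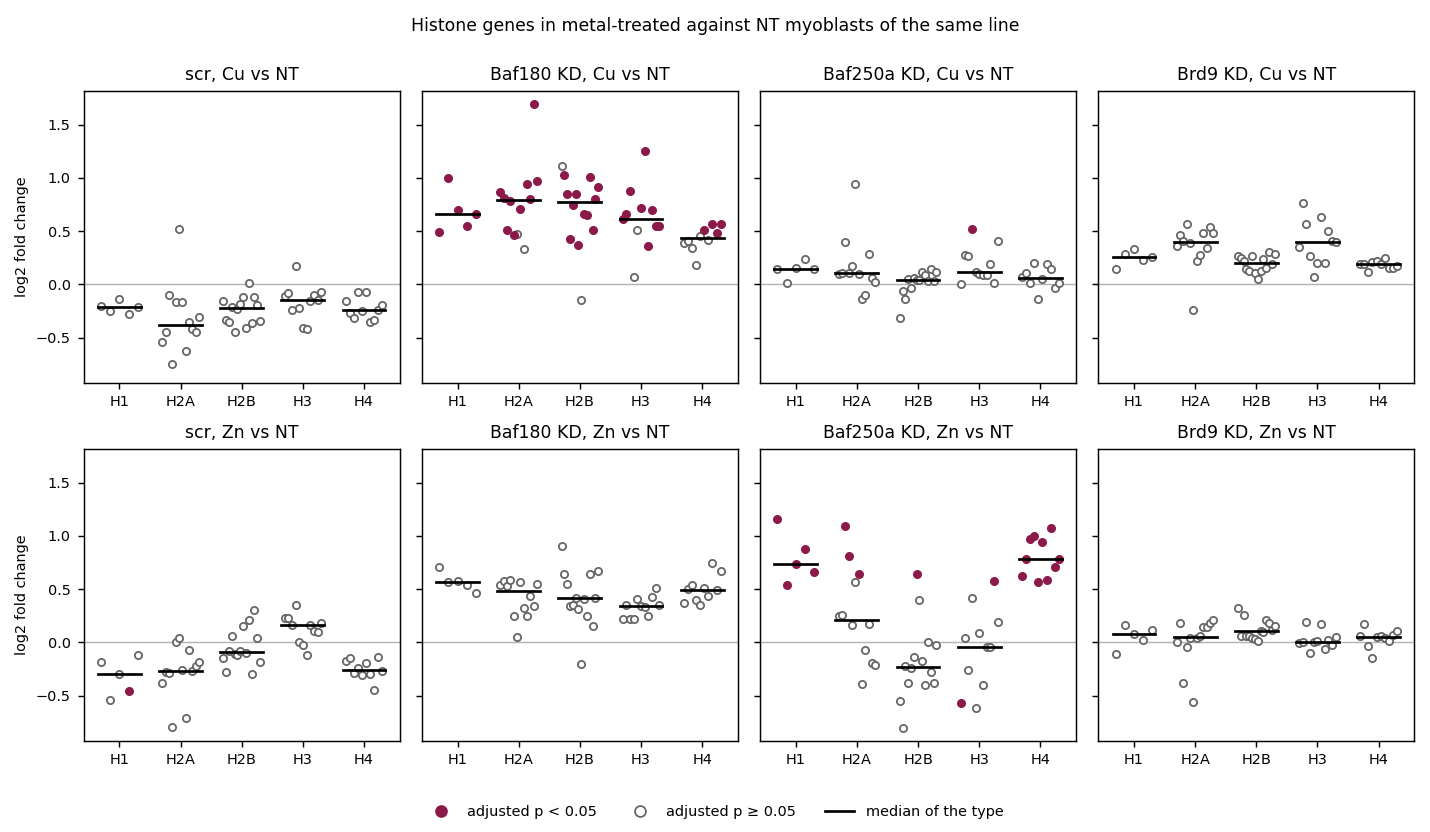
Log2 fold change of each tested histone gene (vertical axis) with Cu (top) or Zn (bottom) against NT in the 4 cell lines, by histone type (horizontal axis); filled points passed an adjusted p of 0.05, open points did not, and black lines are medians. Filled points number 40 and lie in all types in *Baf180* KD with Cu, number 21 in *Baf250a* KD with Zn, of which 15 are H1 and H4 genes, and number at most 1 in each other panel.

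In *Baf250a* KD cells the calls with Zn fell mainly on H1 and H4 genes. With Zn, 20 of 52 genes were higher and 1 lower, where 8.85% of all 14706 genes were called higher and 7.02% lower. All 5 H1 and all 10 H4 genes were called higher, as were *H2ac12*, *H2ac13* and *H2ac20* of the H2A genes, *H2bc18* of the H2B genes and *H3c7* of the H3 genes. The medians were 0.74 for H1 and 0.78 for H4, and 0.21 for H2A, -0.23 for H2B and -0.04 for H3.

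*H1f1* rose from 93.6 and 101 CPM at NT to 230 and 171 with Zn (log2 fold change 1.16, SE 0.10, edgeR adjusted p = 2.32e-07), close to the 249 and 232 CPM of scr cells with Zn in the deeper library. *H4c14* rose from 80.8 and 78.1 CPM to 169 and 115 (1.00, SE 0.11, 2.97e-06), *H1f4* from 163 and 165 to 298 and 303 (0.88, SE 0.12, 3.26e-05), and *H1f2* from 206 and 213 to 292 and 323 (0.54, SE 0.11, 0.00211). *H2bc18* rose from 148.6 and 148.5 CPM to 215 and 272 (0.64, SE 0.12, 0.000653). *H3c6* was at 64.9 and 70.2 CPM at NT and at 57.9 and 124 with Zn, so the Zn libraries lay on both sides of NT (-0.04, SE 0.17, 0.911). The 1 lower call was *H3c1*, at 28.1 and 33.9 CPM at NT and at 19.6 and 36.9 with Zn (-0.57, SE 0.17, 0.0249), whose Zn libraries also lay on both sides of NT.

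The 2 Zn libraries lay within counting error of each other for H1 only. The summed H1 level was 1338 CPM in the deep library (95% exact Poisson interval 1319 to 1357) and 1316 in the shallow one (1218 to 1418), both above 788 and 791 at NT. The H4 sum was 974 CPM (957.9 to 990.2) and 843 (765.9 to 926.5), above 540.4 and 546. The H2B sum was 465 CPM in the deep library (454 to 476), between the 456 and 506 at NT, but 845 in the shallow one (768 to 929), which rests on 435 counts. The H3 sum was 319 CPM (310.0 to 329) and 581 (517 to 651), against 313 and 336 at NT, and that of H2A 188 (181 to 195) and 276 (232 to 325), against 154 and 176. These intervals cover counting error only, and the H2A, H2B, H3 and H4 intervals of the 2 libraries do not meet; only those of H1 do. Without the shallow library 20 genes were called higher and 8 lower, and without the deep one 11 were called higher and 0 lower.

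**Figure D4:**
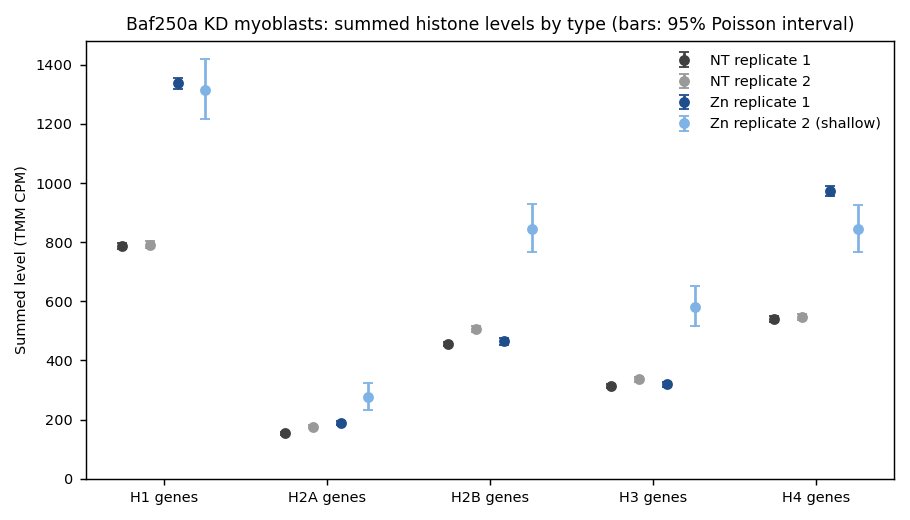
Summed level of each histone type in TMM CPM (vertical axis, from 0) in the 4 libraries of *Baf250a* KD cells at NT and with Zn; bars are 95% exact Poisson intervals, which cover counting error only. For H1 and H4 both Zn libraries lie above NT, whereas for H2B and H3 the deep Zn library lies at the NT level and the shallow one above it.

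Zn moved many S-phase genes of *Baf250a* KD cells in the same direction as H1 and H4: 23 of 35 were higher and 0 lower (median 0.47), with the helicase subunit *Mcm5* the highest of those called (0.83, SE 0.10, 8.27e-06). Of the G2 and mitosis genes 15 of 30 were higher and 0 lower, and of the replication-independent histone genes 7 of 13 were higher and 0 lower. *Slbp* rose from 38.6 and 35.8 CPM to 52.9 and 44.7 (0.48, SE 0.12, 0.00712). Their part in the histone values was not tested. With Cu, 1 histone gene was called higher and 0 lower, where 0.626% of all genes were called higher and 0.646% lower. It was *H3c13*, which rose from 42.4 and 39.4 CPM to 53.1 and 64.8 (0.52, SE 0.13, 0.0494), and the call was lost without either NT library or without Cu replicate 2, while 2 genes were called without the shallow Zn library, which shares the fit.

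In *Brd9* KD cells neither metal moved a histone gene past the test. With Cu, edgeR called 0 of 52 genes, with 20 at an unadjusted p under 0.05 (16.2% of all genes), and DESeq2 called 3, where 0.174% of all 14978 genes were called higher and 0.100% lower. The median was 0.25, both Cu libraries lay above both NT libraries for 32 of the 52 genes (33.0% of all genes), and the summed level was 1.23 times that at NT. *H3c6* was at 143 and 182 CPM with Cu and 118 and 104 at NT (0.50, SE 0.12, edgeR adjusted p = 0.146). With Zn, edgeR and DESeq2 called 0 genes and none of the 52 had an unadjusted p under 0.05 (3.01% of all genes), where 0.0267% of all genes were called higher and 0.00668% lower.

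**Figure D5:**
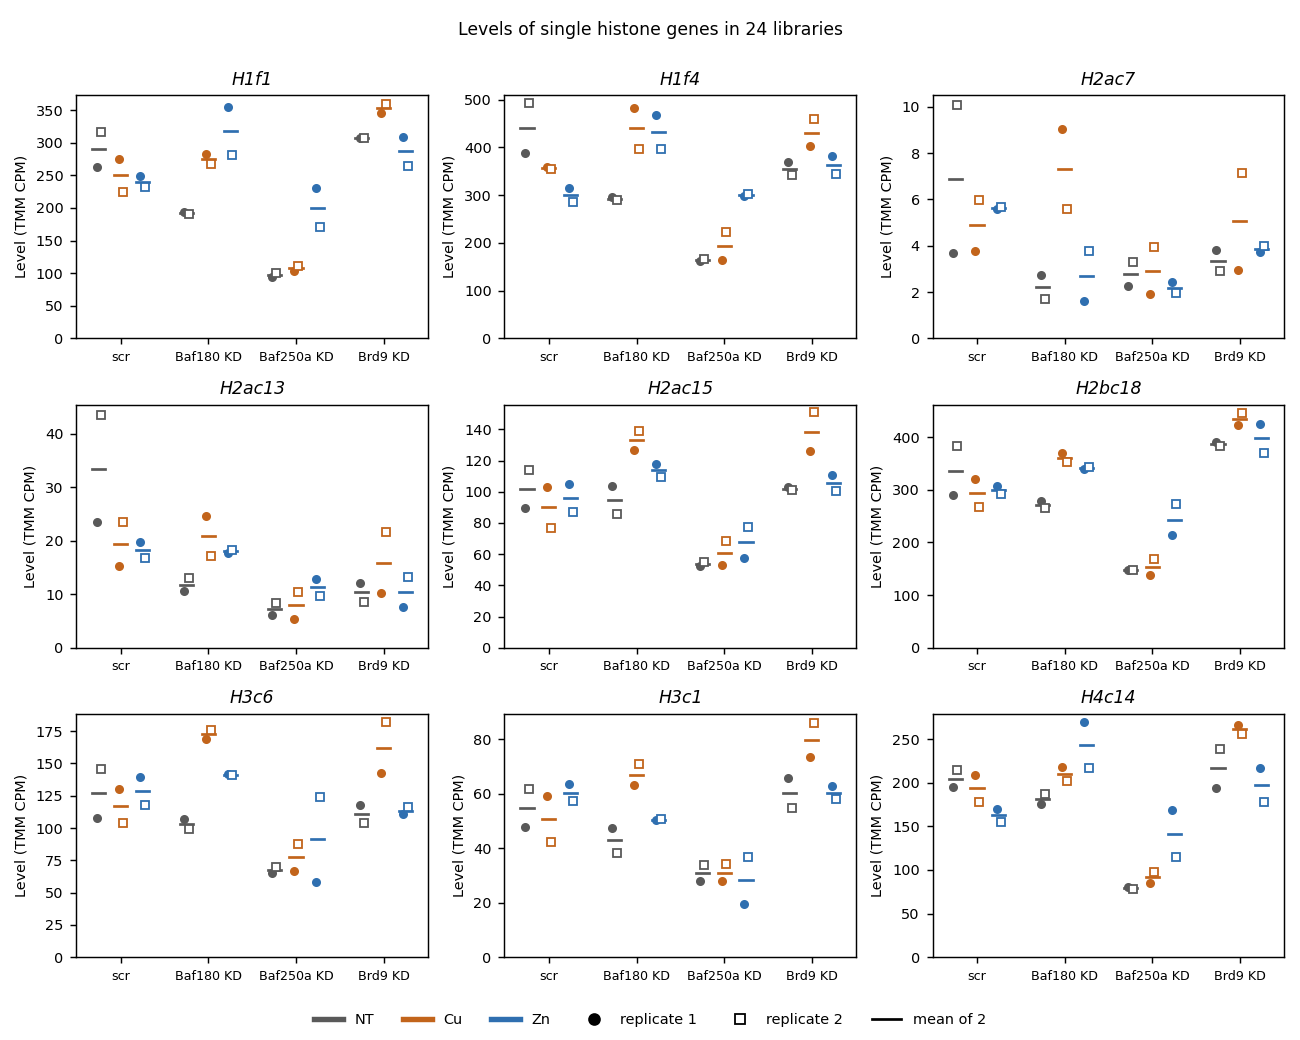
Level of 9 histone genes in TMM CPM (vertical axes, from 0) in the 4 cell lines (horizontal axes) by treatment (grey NT, orange Cu, blue Zn); points are single libraries and lines the mean of 2. *H2ac7* stays at or below 10.1 CPM in all libraries, *H1f1* and *H4c14* rise with Zn in *Baf250a* KD cells, and *H3c1* and *H3c6* have Zn libraries on both sides of NT in that line.

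Whether a KD line responded to a metal differently from scr cells was tested as an interaction over all 24 libraries. These tests share the scr libraries as well. Each KD line's comparison with scr, its metal responses and its interactions also share its 2 NT libraries, so they are not independent. The Cu response of *Baf180* KD cells was higher than that of scr for 38 of 52 genes and lower for 0, where 5.39% of all 16524 genes were called higher and 7.41% lower. The difference was 1.32 on the log2 scale for *H1f2* (SE 0.24, edgeR adjusted p = 0.00826), 0.93 for *H1f5* (SE 0.17, 0.00826), 0.89 for *H1f4* (SE 0.19, 0.00976), 0.86 for *H3c6* (SE 0.27, 0.0387) and 2.21 for *H2ac7* (SE 0.63, 0.0272). The count was 0 without scr NT replicate 2 or without *Baf180* KD Cu replicate 1, 7 without *Baf180* KD NT replicate 2, 21 without scr Cu replicate 2 and 25 without *Baf180* KD NT replicate 1. It was 1 with the offset for GC content and length, where the difference changed by 0.51 per 10 percentage points of GC over all genes and by 0.05 among the histone genes.

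The Zn response of *Baf180* KD cells was higher than that of scr for 26 genes and lower for 0, against 16.1% of all genes called higher and 12.6% lower. These were all 5 H1 and all 10 H4 genes, 7 of 12 H2A, 4 of 14 H2B and 0 of 11 H3 genes. *H1f4* differed by 1.11 (SE 0.19, edgeR adjusted p = 0.000967) and *H4c14* by 0.76 (SE 0.19, 0.00664). The difference in Zn response changed by 0.75 per 10 percentage points of GC over all genes and by -0.03 among the histone genes. The count was 10 without scr NT replicate 2, 13 without scr Zn replicate 2, 14 without *Baf180* KD Zn replicate 1, 17 without *Baf180* KD NT replicate 1 and 6 with the GC and length offset.

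The Zn response of *Baf250a* KD cells was higher than that of scr for 20 genes and lower for 0, against 17.3% of all genes called higher and 13.2% lower. They were all 5 H1 and all 10 H4 genes, 3 H2A, 1 H2B and 1 H3 gene. *H1f4* differed by 1.42 (SE 0.20, edgeR adjusted p = 0.000144), *H1f1* by 1.39 (SE 0.19, 0.000131) and *H4c14* by 1.28 (SE 0.20, 0.000276). Over all genes this difference in Zn response changed by 0.9 per 10 percentage points of GC, and among the histone genes by -0.08. The count was 9 without the deep *Baf250a* KD Zn library, and with the GC and length offset 16 genes were higher and 1 lower.

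For the other interactions few genes passed. For Cu in *Baf250a* KD cells edgeR and DESeq2 called 0 genes, with 6 at an unadjusted p under 0.05 (7.71% of all genes), where 0.0121% of all genes were called higher and 0.00% lower. For Cu in *Brd9* KD cells edgeR and DESeq2 also called 0, with 31 at an unadjusted p under 0.05 (16.7% of all genes), where 0.0242% were called higher and 0.0121% lower; 5 genes were called without scr NT replicate 1 and 4 without scr Cu replicate 1. For Zn in *Brd9* KD cells 1 gene was called, *H1f2* (0.80, SE 0.24, 0.0392), where 5.86% of all genes were called higher and 5.25% lower. That count was 5 without scr NT replicate 1, 3 without *Brd9* KD Zn replicate 2, and 0 without either scr Zn library, scr NT replicate 2, *Brd9* KD Zn replicate 1 or *Brd9* KD NT replicate 2.

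The factors that make histone mRNA were called in both directions. Of 22 such genes, 11 were lower and 2 higher in *Baf250a* KD against scr at NT (median -0.33), 6 were lower and 4 higher in *Baf180* KD, and 3 were lower and 3 higher in *Brd9* KD cells. *Slbp* was at 38.6 and 35.8 CPM in *Baf250a* KD NT and 37.1 and 35.1 in scr NT (log2 fold change 0.04, SE 0.11, edgeR adjusted p = 0.764), and it was higher in *Baf180* KD cells, at 46.7 and 43.8 CPM (0.34, SE 0.11, 0.0295). *Npat*, the coactivator of histone transcription, was higher in all 3 KD lines at NT: at 49.8 and 49.7 CPM in *Baf250a* KD against 28.9 and 20.3 in scr (1.02, SE 0.15, 7.83e-05), by 0.93 in *Baf180* KD (SE 0.16, 0.000878) and by 1.11 in *Brd9* KD cells (SE 0.18, 0.00474). *Npat* fell with Cu in *Baf180* KD (-0.58, SE 0.17, 0.0434) and with Zn in *Baf250a* KD cells (-0.73, SE 0.13, 0.000444), the comparisons in which histone genes rose. Over all genes, log2 fold changes fell with GC content in the comparisons of KD with scr. They rose with it in these metal comparisons, by 0.28 with Cu and 0.30 with Zn per 10 percentage points. The part of GC content in the *Npat* values was not tested. *Ccne1*, cyclin E1, whose kinase phosphorylates Npat, was the lowest of the called genes in *Baf250a* KD cells at NT (-1.60, SE 0.13, 4.3e-07) and the highest with Zn (0.68, SE 0.14, 0.00127). *Casp8ap2*, which encodes the U7 processing factor FLASH, was higher in *Brd9* KD (1.14, SE 0.32, 0.0312) and did not pass in the other lines at NT. *Hinfp*, which acts on H4 promoters, lay between 26.6 and 33.4 CPM in all libraries and passed no test at NT.

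Genes listed as replication-independent histones, whose mRNAs are mostly polyadenylated, were also lower in *Baf250a* KD cells at NT. Of these 13 genes, 9 were lower and 1 higher (median -0.46). *H2az1*, the variant H2A.Z, had the largest fall (-1.31, SE 0.11, 5.01e-07), and *H3f3a*, the variant H3.3, rose (0.77, SE 0.15, 0.000712). In *Baf180* KD 4 were lower and 0 higher (median -0.22), and in *Brd9* KD cells 2 were lower and 0 higher (median -0.01). Of 17 histone chaperones and assembly factors, 10 were lower and 1 higher in *Baf250a* KD cells (median -0.46), with *Nasp*, the H1 and H3-H4 chaperone, the lowest (-0.86, SE 0.11, 3.79e-05).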

How the data were processed

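RNA-seq of the 24 libraries gave whole-number counts per gene. The authors removed rRNA with RNase H, built strand-specific libraries, aligned reads to mm10 with STAR keeping unique alignments and counted read pairs with featureCounts (versions and annotation release are not given in the sources used here), and the deposited counts are not normalized. Their deposited DESeq2 comparison tables were not used. Groups come from sample titles, because a treatment tag contradicts them.

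In R 4.3.3, edgeR 4.0.16 (quasi-likelihood, TMM, filterByExpr, adjusted p under 0.05) was fitted to the 6 libraries of a line for metals, to the 4 libraries compared for KD against scr, and to all 24 for interactions. It was tested on simulated data. Alternatives were DESeq2 1.42.0, RLE size factors, all genes with at least 1 count, a replicate block, a GC and length offset (splines, 5 degrees of freedom), 1 fit of all libraries, and leaving out each library. Nothing says more of the replicates than that they are independent, so p-values measure their spread alone.

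The members, lists and tests were chosen with earlier results of these data known. Values per library are given for *H2ac7*, the most abundant gene of each type and cluster, the 3 genes called most often and the called gene with the largest rise or fall in each comparison, with *Slbp*, *Npat*, *Casp8ap2*, *Hinfp* and list genes called with the largest rise or fall. A further 9 histone rows under older names were outside the rule.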

Additional observations from a re-analysis of the deposited data

Results flagged for a closer look

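The tests of the interaction between metal and cell line called histone genes in 4 of 6 cases. The metal response was higher than in scr cells for 38 of 52 genes with Cu in *Baf180* KD (5.39% of all genes), for 26 with Zn in *Baf180* KD (16.1%) and for 20 with Zn in *Baf250a* KD cells (17.3%). With Zn in *Brd9* KD cells it was higher for 1, *H1f2*, a smaller share of the histone genes than the 5.86% of all genes. The counts in either direction with the offset for GC content and length were 1, 6, 17 and 0, and 1 of the 17 was lower. No group had more than 2 libraries, so single libraries far from their group could not be looked for.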

How the results depend on the processing

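In *Baf250a* KD against scr at NT, all alternatives gave between 44 and 48 histone genes called. The other counts moved as follows. With every gene kept that had a count, 5 histone genes were called for scr Cu and 5 for scr Zn against NT, 32 for *Baf180* KD Zn, 15 for *Brd9* KD Cu and 15 for *Brd9* KD against scr, and 4, 27 and 5 for the interactions of *Baf250a* KD with Cu, *Brd9* KD with Cu and *Brd9* KD with Zn. DESeq2 called 4 for scr Zn, 19 for *Baf180* KD Zn, 0 for *Baf250a* KD Cu, 12 for *Baf250a* KD Zn and 3 for *Brd9* KD Cu. RLE size factors gave 2 for scr Zn, 0 for *Baf250a* KD Cu and 0 for the interaction of *Brd9* KD with Zn. The GC and length offset gave 0 for scr Zn, 0 for *Baf250a* KD Cu, 14 for *Brd9* KD against scr (10 higher and 4 lower, against 2 higher and 5 lower without the offset), and 1, 6 and 0 for the interactions of *Baf180* KD with Cu, *Baf180* KD with Zn and *Brd9* KD with Zn. A single fit of all 24 libraries gave 7 for scr Zn, 1 for *Baf180* KD Zn and 0 for *Baf250a* KD Cu. The causes were not tested.

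Nothing in the labels ties samples of the same replicate number, and with only 2 numbers their pairing could not be settled from the data. Correlations of deviations between conditions were 0.17, 0.32 and 0.18 in *Baf180* KD cells and lay between -0.24 and 0.34 over all lines. With the replicate as a block, 0 histone genes were called for scr Zn, 28 for *Baf180* KD Zn, 11 for *Brd9* KD against scr and 2 for the interaction of *Brd9* KD with Zn, and the other counts stayed within 1.5 times.

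Leaving out 1 library at a time gave 0 to 7 calls for scr Zn, 8 to 43 for *Baf180* KD Cu, 0 to 1 for *Baf180* KD Zn, 0 to 2 for *Baf250a* KD Cu, 11 to 28 for *Baf250a* KD Zn, 12 to 44 for *Baf180* KD and 2 to 29 for *Brd9* KD against scr. It gave 0 to 44 and 10 to 33 for the Cu and Zn interactions of *Baf180* KD, 9 to 22 for the Zn interaction of *Baf250a* KD, and 0 to 5 for both interactions of *Brd9* KD. Leaving the shallow library out of comparisons that do not involve it was chosen after seeing the data. The log2 fold changes of *H3c1* with Zn in *Baf250a* KD ran from -0.69 to 0.28, the latter without the deep Zn library, and that of *H2bc7* in *Baf250a* KD against scr was 0.14 with the GC and length offset, so the direction of both depends on a setting. A further tally pooled the calls of the genes named with the median log2 fold change of the histone genes in each comparison. A gene was unchanged if it kept direction and side of the threshold, and a median if it shifted by less than the pooled SD of 0.142. Under other settings 413 values were unchanged, 58 genes lost the call, 12 medians moved and 1 gene reversed. With 1 library left out, 29 medians moved and 1 gene reversed. Precision was limited by 2 libraries per group, by the 1987 histone counts of the shallow library, and by low levels in genes such as *H2ac7*, whose SE was 0.37 in *Baf250a* KD against scr and 0.12 for *H1f4*.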
